A study of Mus musculus with 12 samples.

Results

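Transcripts of 39 genes for integrins, cadherins and immunoglobulin-type cell adhesion molecules were examined in RNA-Seq values from osteoblasts of PTH-treated mice and from *Slpi*-overexpressing MC3T3-E1 cells. The genes were taken by name: 56 integrin α and β subunit genes, cadherin genes, *Icam* genes, *Vcam1*, *Ncam1*, *Alcam* and *Mcam* were matched among 25897 gene names, and 39 of them reached 1 FPKM in 1 or more of the 12 libraries. FPKM scales the fragments on a gene by transcript length and by the library's mapped reads, so levels of different genes can be set side by side. The members just inside this limit were *Icam5* and *Itgb8*, with highest values of 1.14 and 1.24 FPKM, and those just outside it were *Itga4* and *Cdh23*, with 0.959 and 0.840.

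In the first experiment, female mice of the Col2.3-ECFP line, 12 weeks old, in which a cyan fluorescent protein is driven by a type I collagen promoter, were injected for 3 weeks, 5 days a week, with vehicle or with 40 µg/kg PTH(1-34) daily. Living, lineage-negative, CD45-, ECFP+ cells were sorted 24 h after the last injection, giving 3 vehicle and 3 PTH libraries. In the second, MC3T3-E1 cells, a clonal line of mouse calvarial pre-osteoblasts, carried either an empty retroviral vector (mock, 3 libraries) or the same vector with *Slpi*, the gene of a secreted serine protease inhibitor (Slpi, 3 libraries). Both arms were puromycin-selected and harvested subconfluent. The reporter marks cells by promoter activity and MC3T3-E1 is a single line, and the labels do not tie the replicates of the line to separate cultures, so *p* values for it measure the spread between these libraries, which may be technical.

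Integrins are pairs of 1 α and 1 β subunit that hold cells to extracellular matrix or to other cells and link, through talin, kindlin and the focal adhesion proteins, to actin. The α subunit largely sets the ligand: collagens, laminins, the RGD sequence of fibronectin and vitronectin, or, on leukocytes, ICAMs and other counter-receptors. Cadherins join like cells through calcium-dependent contacts and bind catenins inside the cell, and N-cadherin and cadherin-11 are known as the main cadherins of osteoblasts. ICAM-1 and VCAM-1 are counter-receptors of leukocyte and α4 or α9 integrins.

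The sequences before the transcription start of 4 integrin genes are printed because these genes differed between mock and Slpi cells: *Itga1*, *Itga5* and *Itgb5* were lower in Slpi cells and *Itga8* was higher. Each is the 250 bases upstream of the RefSeq start (GRCm38.p6), 5′ to 3′ on the strand of the gene, and capitals mark a match to a searched motif. They lie at chr13:115101965-115102214 (minus strand), chr15:103366792-103367041 (minus strand), chr16:33829415-33829664 (plus strand) and chr2:12301945-12302194 (minus strand), in that order, outside the GENCODE M21 gene bodies.
Itga1: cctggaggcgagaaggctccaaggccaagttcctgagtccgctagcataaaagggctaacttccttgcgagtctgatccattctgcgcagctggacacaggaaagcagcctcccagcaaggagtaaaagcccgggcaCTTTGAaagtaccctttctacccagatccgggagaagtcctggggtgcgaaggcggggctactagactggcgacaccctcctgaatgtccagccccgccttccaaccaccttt
Itga5: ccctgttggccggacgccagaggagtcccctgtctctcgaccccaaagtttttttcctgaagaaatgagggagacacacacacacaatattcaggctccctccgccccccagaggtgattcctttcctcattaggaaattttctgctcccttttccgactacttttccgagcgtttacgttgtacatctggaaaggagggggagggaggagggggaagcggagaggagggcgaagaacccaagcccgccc
Itgb5: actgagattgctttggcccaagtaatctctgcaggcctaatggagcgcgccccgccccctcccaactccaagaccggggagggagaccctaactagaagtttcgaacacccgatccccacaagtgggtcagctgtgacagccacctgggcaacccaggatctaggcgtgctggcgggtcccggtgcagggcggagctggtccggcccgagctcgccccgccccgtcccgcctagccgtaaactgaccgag
Itga8: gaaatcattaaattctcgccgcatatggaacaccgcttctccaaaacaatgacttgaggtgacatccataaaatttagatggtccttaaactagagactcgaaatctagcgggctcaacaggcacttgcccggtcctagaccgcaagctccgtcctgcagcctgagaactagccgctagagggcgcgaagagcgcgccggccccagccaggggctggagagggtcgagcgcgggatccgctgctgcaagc
Of these 4 windows, the capitals appear in that of *Itga1*, at 113 to 108 bases before the start, and mark the TCF/LEF letters CTTTGA.

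RefSeq promoter entries were found for 23 of the 39 genes, in 24 windows of 250 bases, and 5 motifs were searched on both strands. The RUNX letters TGTGGT were in 2 windows (8.33%, against 14.0% of 32851 windows of all genes), those of *Cdh15* and of 1 of 2 *Itga3* starts. CTTTGA was in 4 windows (16.7%, against 13.8%), those of *Icam4*, *Itga1*, *Itga10* and *Itgam*. The cyclic AMP response element TGACGTCA was in 1 window (4.17%, against 1.55%), that of *Mcam*, and the NF-kB consensus in 1 (4.17%, against 3.90%), that of *Cdh22*. The AP-1 letters TGANTCA were in 0 windows, against 6.75% of all. No motif overlapped another in these windows, and a match describes letters only.

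Summed over genes, libraries of sorted osteoblasts held 400838.8 to 462460.2 FPKM and those of MC3T3-E1 cells 541932.2 to 599746.4. *Slpi* itself was 1.64, 2.38 and 2.62 FPKM with vehicle and 37.5, 19.8 and 27.2 with PTH, and 377, 396 and 386 in mock cells against 2105, 1973 and 1848 in Slpi cells. Both treated groups thus carried more *Slpi* than their controls in every library. The osteoblast markers *Bglap* (6963 to 14280 FPKM) and *Runx2* (29.7 to 53.2) were present in all 6 sorted libraries, and *Col1a2* was listed at 0 in 4 of them although it was 26655 and 24544 in the others. Of 10 osteoblast markers 1 (*Alpl*) was called higher with PTH and 9 had a positive log2 difference, with a median of 0.38, and of 7 stromal markers 2 (*Lepr* and *Pdgfrb*) were called higher. Their part in the differences of adhesion molecules was not tested. Of 4 tested erythroid markers 0 were called, with *Hba-a1* higher at an unadjusted *p* under 0.05 in limma. Sorted libraries also held markers of other cells, and PTH replicate 3 stood apart: its epithelial marker sum was 2.86 FPKM against 242 to 590.2 in the other 5 libraries, while PTH replicate 2 had a sum of heart and skeletal muscle markers of 2469 against 1.47 to 43.8. In bulk samples fewer cells of a type and less RNA per cell cannot be told apart.

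In sorted osteoblasts, PTH was accompanied by higher *Itga5* and *Cdh2* and by lower *Itgb7* and *Itgal*, while the transcripts of most adhesion molecules did not pass the test. Of 39 members, 35 were tested, and 2 were higher (5.71%) at an adjusted *p* under 0.05 in limma, against 6.38% of all 13004 genes tested. A further 2 were lower (5.71%, against 8.85% of all genes). On the log2(FPKM + 1) scale none of the 35 was at least 2-fold higher at that threshold (0.869% of all genes). *Itgb3* was so at an unadjusted *p* under 0.05 in limma. The same 2, *Itgb7* and *Itgal*, were at least 2-fold lower (3.78% of all genes), with 4 so at an unadjusted *p* under 0.05, *Icam2* and *Itgb2* included. The low genes *Itgam*, *Itgb8* and *Itgae* stayed under 2-fold on that scale, with ratios of the mean FPKM of 2.9, 3.5 and 0.103. The shares of called members were thus near those of all genes. The median log2 difference of the tested members was 0.04, and that of all genes tested was 0.01.

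The 3 PTH libraries lay above all 3 vehicle libraries for 10 tested members (28.6%, against 19.5% of all genes) and below them for 7 (20%, against 20.9%). With 3 libraries against 3 the smallest two-sided *p* of an exact permutation test is 0.10, so that test cannot pass 0.05 for any single gene. The filter let 29 members through on values in both groups, 3 (*Icam4*, *Itgae*, *Itgb4*) through vehicle libraries alone and 3 (*Icam5*, *Itga9*, *Itgb8*) through PTH libraries alone. *Itgb8* is among the 10 above and *Itgae* among the 7 below, and their places in these counts are no support. The other 4 members, *Cdh3*, *Cdh22*, *Cdh26* and *Itga8*, stayed under 1 FPKM in all 6 libraries.

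**Figure D1:**
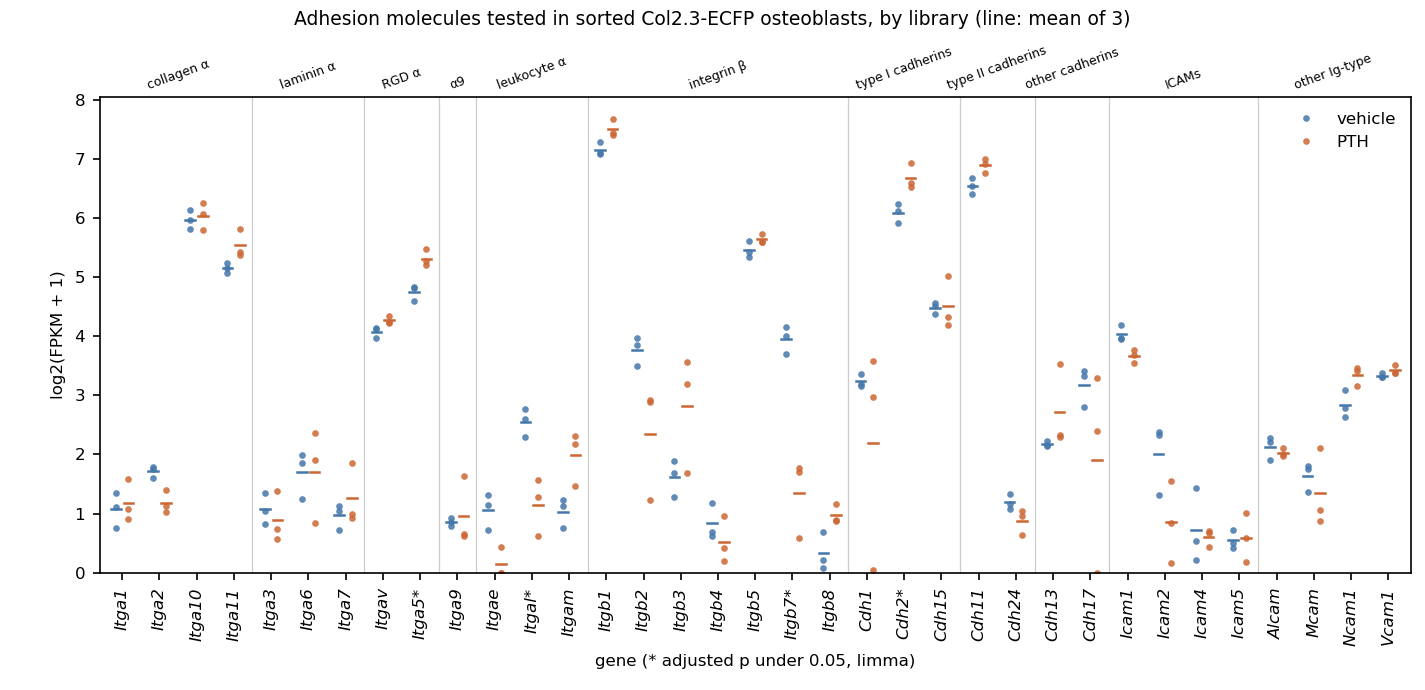
Values of the 35 tested adhesion molecules as log2(FPKM + 1) in 3 vehicle and 3 PTH libraries of sorted osteoblasts, grouped by role, with a line at each mean and an asterisk where the adjusted *p* of limma was under 0.05. The highest levels are those of *Itgb1*, *Cdh11* and *Cdh2*, and 4 genes carry an asterisk.

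Among the RGD-binding α subunits, *Itga5* (chr15:103344286-103366763, mm10), whose product pairs with β1 as the fibronectin receptor, was 27.5, 23.3 and 27.3 FPKM with vehicle and 35.8, 37.5 and 43.6 with PTH. All PTH values were above all vehicle values, and the means were 26.0 ± 2.41 and 39.0 ± 4.14 (SD, n = 3 libraries each). *Itga5* rose by 0.56 ± 0.12 (SE) on the log2(FPKM + 1) scale, with an adjusted *p* of 0.0293 in limma. The call was lost without vehicle replicate 1 (adjusted *p* = 0.0982 in limma), vehicle replicate 2 (0.108), vehicle replicate 3 (0.0509) or PTH replicate 1 (0.0611), with log2 differences of 0.48 to 0.62 over the 6 fits that leave out 1 library. *Itgav*, the α subunit of the vitronectin receptors, was 14.6, 16.4 and 16.6 FPKM with vehicle and 19.3, 17.7 and 17.9 with PTH, a log2 difference of 0.20 that did not pass (adjusted *p* = 0.221 in limma).

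*Itgb1* (chr8:128685654-128733200), the common β subunit of the matrix receptors, was the most abundant member per length in this experiment. It was 136, 135 and 155 FPKM with vehicle and 173, 203 and 169 with PTH. The groups did not overlap, and the log2 difference of 0.35 ± 0.11 (SE) had an adjusted *p* of 0.0738 in limma. It was 0.07 after quantile normalization (adjusted *p* = 0.658 in limma). *Itgb5*, a partner of αv, was 39.5, 42.0 and 47.8 FPKM with vehicle and 47.4, 47.3 and 52.3 with PTH, overlapping values with a log2 difference of 0.18 (adjusted *p* = 0.273 in limma).

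*Itgb3*, the β3 subunit, which also pairs with αv and is abundant on platelets and osteoclasts, was 2.70, 1.43 and 2.22 FPKM with vehicle and 10.9, 8.15 and 2.202 with PTH. PTH replicates 1 and 2 were thus high and PTH replicate 3 lay within the vehicle values. The log2 difference was 1.197 ± 0.469 (SE; adjusted *p* = 0.125 in limma), and without PTH replicate 3 it was 1.77 (adjusted *p* = 0.00908). The sum of 9 platelet markers was likewise high in PTH replicates 1 and 2, at 4.12, 7.43 and 5.65 FPKM with vehicle and 185, 150.3 and 6.42 with PTH, with *Pf4* at 135.8 and 105.4 in PTH replicates 1 and 2 and 1 marker, *Gp1bb*, called higher. None of the 9 was under 0.5 FPKM in all libraries. Of 7 osteoclast markers 2 were tested: *Ctsk* was called higher, and *Acp5* was 8.31, 10.2 and 7.12 FPKM with vehicle and 27.4, 25.4 and 9.88 with PTH (adjusted *p* = 0.0848 in limma), also highest in PTH replicates 1 and 2. *Calcr*, *Ocstamp*, *Dcstamp* and *Oscar* were under 0.5 FPKM in all 6 libraries. The part of platelets or osteoclasts in the *Itgb3* values was not tested.

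The collagen-binding α subunits were led by *Itga10* and *Itga11*, and 0 of 4 were called, against 6.38% higher and 8.85% lower of all genes. *Itga11* and *Itga2* had unadjusted *p* values under 0.05 in limma, 1 in each direction. *Itga10* was 61.3, 55.1 and 69.4 FPKM with vehicle and 66.2, 54.9 and 75.2 with PTH, and 33.5% of its exon bases are shared with the annotated gene *Gm42957* on the same strand, so that its level is uncertain. *Itga11*, whose product binds fibrillar collagen, was 34.6, 32.8 and 37.0 with vehicle and 42.2, 40.5 and 55.3 with PTH, without overlap (log2 difference 0.38, adjusted *p* = 0.105 in limma). *Itga1* and *Itga2* were each below 2.5 FPKM in all 6 libraries. The laminin-binding *Itga3*, *Itga6* and *Itga7* were between 0.482 and 4.12 FPKM, and their groups overlapped. The highest of them, *Itga6*, was 1.37, 2.98 and 2.60 FPKM with vehicle and 2.76, 4.12 and 0.781 with PTH. *Itga9*, which binds tenascin and VCAM-1, was 0.737, 0.819 and 0.893 with vehicle and 0.534, 2.09 and 0.575 with PTH.

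The largest differences lay in the integrin subunits of leukocytes. *Itgb7* (chr15:102215995-102231944), whose product pairs with α4 or αE on lymphocytes, was 16.8, 15.1 and 11.99 FPKM with vehicle and 2.27, 2.43 and 0.498 with PTH. The lowest vehicle library was well above the highest PTH library, and the ratio of the means was 0.118. *Itgb7* fell by 2.60 ± 0.33 (SE) on the log2(FPKM + 1) scale, with an adjusted *p* of 0.0138 in limma. *Itgal* (chr7:127296260-127335138), the α subunit of LFA-1, a receptor for ICAMs, was 5.09, 5.82 and 3.91 FPKM with vehicle and 1.95, 1.42 and 0.534 with PTH, again without overlap. It fell by 1.41 ± 0.27 (SE), with an adjusted *p* of 0.0228 in limma.

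Without vehicle replicate 1 or 2, *Itgb7* (adjusted *p* = 0.0734 and 0.0746 in limma) and *Itgal* (0.0962 and 0.0981) lost their calls, with log2 differences of -2.81 to -2.21 and -1.61 to -1.14 over the 6 fits that leave out 1 library. In those same fits 1 and 0 genes of all tested were called higher and 0 and 0 lower. Without PTH replicate 3, 3 members were higher (*Itga5*, *Itgam* and *Itgb3*) and 3 lower (*Itgal*, *Itgb2* and *Itgb7*).

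*Itgb2*, the β2 subunit shared by LFA-1 and Mac-1, was 14.7, 13.5 and 10.3 FPKM with vehicle and 6.59, 6.39 and 1.34 with PTH, without overlap (log2 difference -1.43, adjusted *p* = 0.0719 in limma). *Itgae*, whose product pairs with β7, was 1.21, 1.48 and 0.645 with vehicle and listed at 0, 0.344 and 0 with PTH (adjusted *p* = 0.0526 in limma). *Itgam*, the α subunit of Mac-1 on myeloid cells, stood on the other side, with 1.19, 1.33 and 0.679 FPKM with vehicle and 3.97, 3.54 and 1.77 with PTH (log2 difference 0.96, adjusted *p* = 0.0532 in limma). On *Itgam*, 68.7% of the exon bases are shared with the annotated gene *Gm49368* on the same strand, and its level is uncertain.

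Markers of several leukocyte types differed between the groups as well, although the sort took CD45- cells. The sum of 13 T and NK cell markers was 100.4 to 152 FPKM with vehicle and 1.14 to 22.8 with PTH, and 5 of 7 tested were called lower (*Cd3d*, *Cd3e*, *Cd3g*, *Lck* and *Zap70*), while *Cd247*, *Cd4*, *Cd8a*, *Klrb1c*, *Ncr1* and *Gzma* were under 0.5 FPKM in all 6 libraries. The sum of 7 mast cell and basophil markers, mostly *Cpa3*, was 49.3 to 76.3 with vehicle and 1.40 to 10.9 with PTH, with *Fcer1a* and *Ms4a2* at 0 in all. The sum of 10 neutrophil markers was 358 to 448 with vehicle and 2271, 1894 and 659.8 with PTH, and 5 of 10 were called higher. The sum of 9 macrophage markers was 42.5 to 70.5 with vehicle and 31.0 to 111.6 with PTH, with 0 of 6 tested called or at an unadjusted *p* under 0.05 in limma, and that of 8 B cell markers was 4.52 to 5.28 with vehicle and 3.28 to 7.88 with PTH, with 0 of 4 tested called or at an unadjusted *p* under 0.05. The part of these cells in the leukocyte integrin values was not tested.

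**Figure D2:**
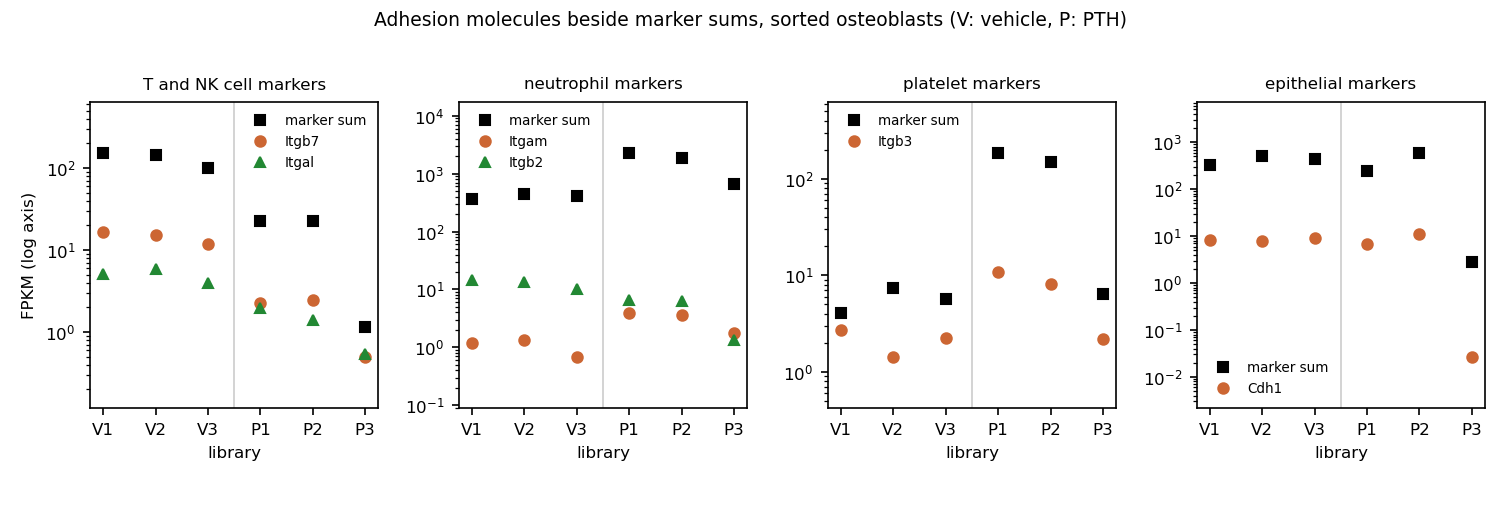
Levels in FPKM on a log axis, by library of sorted osteoblasts (V1 to V3 vehicle, P1 to P3 PTH), of adhesion molecules (coloured) and of the summed markers of a cell type (black squares). *Itgb7*, *Itgal* and the T and NK cell sum are lower in the 3 PTH libraries, *Itgb3* and the platelet sum are high in P1 and P2, and *Cdh1* and the epithelial sum are low in P3. The neutrophil sum and *Itgam* are higher in the 3 PTH libraries, while *Itgb2* in the same panel is lower.

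Among cadherins, N-cadherin and cadherin-11 had the highest levels per length. *Cdh2*, which encodes N-cadherin, was 68.3, 59.4 and 74.3 FPKM with vehicle and 95.9, 90.7 and 121 with PTH. The groups did not overlap, with means of 67.4 ± 7.47 and 102.5 ± 16.2 (SD, n = 3 libraries each). *Cdh2* rose by 0.59 ± 0.14 (SE) on the log2(FPKM + 1) scale, with an adjusted *p* of 0.0371 in limma. The call was the least stable of the 4, being lost in 8 of 12 alternatives, among them those without vehicle replicates 1 (adjusted *p* = 0.123 in limma), 2 (0.129) and 3 (0.0513) and without PTH replicates 1 (0.0821) and 3 (0.0522), while the log2 difference stayed between 0.45 and 0.68.

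*Cdh11* (chr8:102632095-102785642), which encodes cadherin-11, was 92.3, 84.2 and 101.7 FPKM with vehicle and 119.5, 107 and 127 with PTH. These groups did not overlap, but the log2 difference of 0.34 ± 0.11 (SE) had an adjusted *p* of 0.0782 in limma. After quantile normalization the difference was 0.13 (adjusted *p* = 0.407 in limma). *Cdh15*, which encodes M-cadherin, known from muscle precursors, was 22.7, 19.7 and 21.8 FPKM with vehicle and 17.3, 19.1 and 31.6 with PTH, and the groups overlapped (log2 difference 0.03, adjusted *p* = 0.926 in limma). The muscle precursor genes *Myod1*, *Myog*, *Myf5* and *Pax7* were under 0.5 FPKM in all 6 libraries, and the sum of 13 muscle markers was 34.6 to 43.8 with vehicle and 23.6, 2469 and 1.47 with PTH, with 0 of 9 tested called or at an unadjusted *p* under 0.05 in limma. The part of muscle RNA in the *Cdh15* values was not tested.

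The epithelial cadherins followed the library that stood apart. *Cdh1*, which encodes E-cadherin, was 8.18, 7.89 and 9.25 FPKM with vehicle and 6.88, 11.01 and 0.0265 with PTH, and *Cdh17*, the intestinal cadherin, was 6.01, 9.65 and 9.05 with vehicle and 4.25, 8.86 and listed at 0 with PTH. In both genes PTH replicate 3 was far below the other 5 libraries, where the sum of 8 epithelial markers was low as well. The log2 differences were -1.04 and -1.29, with adjusted *p* values of 0.412 and 0.278 in limma. Of the 8 epithelial markers 0 were called and 0 had an unadjusted *p* under 0.05 in limma, and the part of epithelial RNA in these cadherins was not tested. *Cdh13* was 3.43 to 4.03 FPKM in 5 libraries and 10.5 in PTH replicate 2, the library with the high muscle marker sum.

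Of the ICAM and other immunoglobulin-type molecules 0 of 8 were called, against 6.38% higher and 8.85% lower of all genes. *Ncam1* was higher and *Icam1* and *Icam2* were lower at an unadjusted *p* under 0.05 in limma. *Icam1* (chr9:21015985-21028817), an inflammatory counter-receptor of β2 integrins, was 17.3, 14.7 and 14.5 FPKM with vehicle and 11.8, 10.8 and 12.6 with PTH, without overlap (log2 difference -0.37, adjusted *p* = 0.0759 in limma). *Icam2*, known from endothelium and leukocytes, was 4.19, 4.04 and 1.501 with vehicle and 1.95, 0.802 and 0.119 with PTH, and PTH replicate 1 lay within the vehicle values (adjusted *p* = 0.108 in limma). The sum of 11 endothelial markers was 16.2 to 17.8 with vehicle and 9.35 to 18.3 with PTH. *Vcam1* was 9.41, 8.97 and 8.90 with vehicle and 10.4, 9.43 and 9.41 with PTH, nearly level (log2 difference 0.09, adjusted *p* = 0.572 in limma). *Ncam1*, the neural cell adhesion molecule, was 5.87, 5.21 and 7.56 with vehicle and 7.90, 10.03 and 9.65 with PTH, without overlap (log2 difference 0.51, adjusted *p* = 0.0762 in limma). *Alcam* was 2.76 to 3.84 FPKM and *Mcam* 0.834 to 3.30 over the 6 libraries, and the groups of both overlapped.

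The partners of these receptors were read from lists of other adhesion genes. Of 27 tested integrin ligands, 4 rose (*Fn1*, *Spp1*, *Nid2* and *Mfge8*) and 0 fell, against 6.38% higher and 8.85% lower of all genes. At an unadjusted *p* under 0.05 in limma 13 ligands were higher and 1, *Lamc3*, was lower. Of all 13004 genes 2077 were higher and 2276 lower at that threshold. *Fn1*, which encodes fibronectin, the ligand of α5β1, was 274, 234.5 and 273 FPKM with vehicle and 502, 485 and 627 with PTH, a rise of 1.04 on the log2 scale (adjusted *p* = 0.0138 in limma). *Spp1*, which encodes osteopontin, rose by 0.81 (adjusted *p* = 0.0139 in limma) and *Mfge8*, which encodes lactadherin, by 0.66 (0.0285). The median log2 difference of the 27 ligands was 0.43, beside 0.01 for all genes tested.

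Of 30 focal adhesion genes 7 rose (*Fermt2*, *Vcl*, *Tgfb1i1*, *Ptk2*, *Ilk*, *Parva* and *Actn1*) and 2 fell, against 6.38% higher and 8.85% lower of all genes. *Fermt2*, which encodes kindlin-2, rose by 0.47 (adjusted *p* = 0.0236 in limma) and *Tgfb1i1*, a paxillin relative, by 0.76 (0.0241), while *Apbb1ip*, which encodes the talin recruiter RIAM of blood cells, fell by 2.03 (0.0227). The other gene that fell, *Parvg*, encodes a parvin of blood cells. Of 9 catenin genes 1 was lower, *Ctnnal1*, which fell by 0.81 (adjusted *p* = 0.0477 in limma), and 0 were higher, with *Ctnnd1* (0.47, adjusted *p* = 0.0503 in limma) higher at an unadjusted *p* under 0.05 and *Ctnnb1* at 0.21 (adjusted *p* = 0.207).

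Of 32 other adhesion receptors 5 rose and 1 fell, again against 6.38% and 8.85% of all genes. *Sdc1*, a heparan sulphate proteoglycan of the surface, rose by 0.94 (adjusted *p* = 0.0138 in limma) and *Sdc2* by 0.61 (0.0192), together with *Sdc3*, *Jam2* and the collagen receptor *Ddr1*. *Selplg*, the selectin ligand of leukocytes, fell by 1.16 (adjusted *p* = 0.0259 in limma).

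In MC3T3-E1 cells with *Slpi*, most tested adhesion molecules were lower, by less than 2-fold each on the log2(FPKM + 1) scale. Of the 39 members 25 were tested, and 15 of them were lower (60.0%, against 28.9% of all 11466 genes tested) and 3 higher (12%, against 31.9% of all genes) at an adjusted *p* under 0.05 in limma. On the log2(FPKM + 1) scale none was at least 2-fold lower or at least 2-fold higher at that threshold (0.384% and 0.733% of all genes). Nor was any at an unadjusted *p* under 0.05 in limma. The ratio of the mean FPKM was 0.471 for *Itgb7* and 0.395 for *Cdh17*, 2 low genes that entered the fit through mock libraries alone. Slpi values lay below all mock values for 16 members (64.0%, against 32.2% of all genes) and above them for 4 (16.0%, against 34.9%). The median log2 difference of the tested members was -0.26, and that of all genes tested was 0.00.

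Of the 25, 23 passed the filter on values in both groups and 2 (*Cdh17* and *Itgb7*) through mock libraries alone. Both are among the 15 called lower and the 16 below all mock values, and neither their calls nor their separation is support. With a mean FPKM of at least 1 as the filter, 14 members were lower and *Cdh17* was not tested. The other 14 members stayed under 1 FPKM in all 6 libraries, among them the leukocyte subunits *Itgal*, *Itgam*, *Itgae* and *Itgb2* and the epithelial and muscle cadherins *Cdh1* and *Cdh15*. The summed FPKM of all 39 members was 958 to 963 in mock cells and 794 to 805 in Slpi cells. The sums of the T and NK cell, B cell, neutrophil, erythroid, muscle and epithelial markers were each under 2 FPKM in all 6 libraries, those of the macrophage, mast cell and platelet markers were 1.55 to 6.36, and 1 of 2 tested endothelial markers, *Flt1*, was called lower. Of 9 tested osteoblast markers 6 were called higher in Slpi cells (*Runx2*, *Sp7*, *Alpl*, *Bglap*, *Bglap2* and *Ibsp*), against 31.9% of all genes. The other 3 had negative log2 differences and were not called, with *Dmp1* lower at an unadjusted *p* under 0.05 in limma. Of 6 tested stromal markers *Cxcl12*, *Kitl*, *Pdgfrb* and *Acta2* were called lower and *Lepr* and *Cspg4* higher. The part of these markers in the differences of adhesion molecules was not tested.

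**Figure D3:**
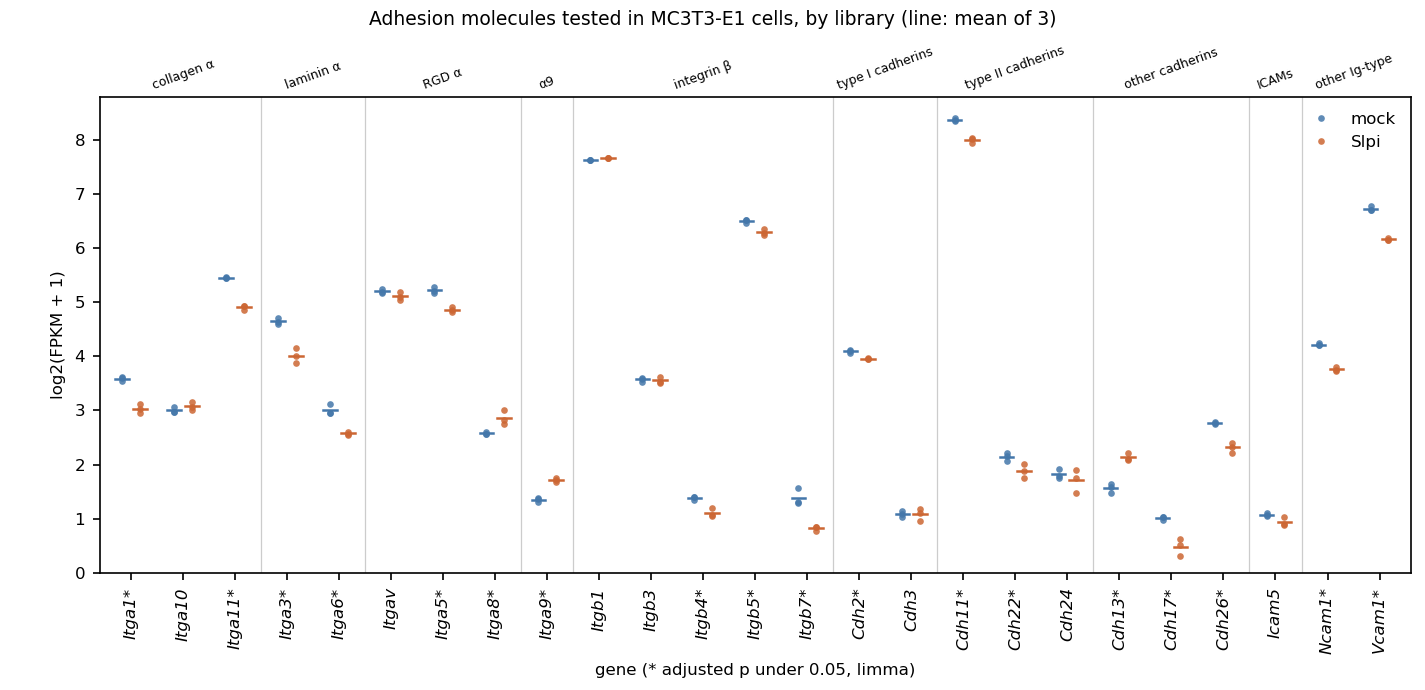
Values of the 25 tested adhesion molecules as log2(FPKM + 1) in 3 mock and 3 Slpi libraries of MC3T3-E1 cells, grouped by role, with a line at each mean and an asterisk where the adjusted *p* of limma was under 0.05. The libraries of a group lie close together, and 15 of the 18 genes with an asterisk are lower in Slpi cells.

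Of the tested α subunits for collagen 2 of 3 fell, and of those for laminin 2 of 2, against 28.9% of all genes. *Itga11* (chr9:62677826-62783982) was 42.5, 43.3 and 42.7 FPKM in mock cells and 29.5, 28.0 and 29.4 in Slpi cells, far apart beside SDs of 0.385 and 0.807. It fell by 0.55 ± 0.03 (SE) on the log2(FPKM + 1) scale, with an adjusted *p* of 7.03e-06 in limma. *Itga1* (chr13:114953096-115101964), whose product binds collagen IV, was 11.1, 10.7 and 11.3 FPKM in mock and 6.78, 7.18 and 7.64 in Slpi cells. It fell by 0.55 ± 0.05 (adjusted *p* = 4.71e-05 in limma). *Itga10* was 6.86, 7.31 and 6.89 in mock and 7.89, 7.41 and 7.06 in Slpi cells, and these overlapped (adjusted *p* = 0.245 in limma).

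*Itga3*, the α subunit of a laminin receptor, was 25.3, 23.3 and 23.8 FPKM in mock and 16.8, 13.8 and 15.1 in Slpi cells. Its fall of 0.64 ± 0.07 (SE; adjusted *p* = 9.11e-05 in limma) was the largest difference among the tested members on the log2(FPKM + 1) scale. *Itga6*, which also binds laminin, was 6.75, 6.71 and 7.73 in mock and 5.11, 4.86 and 4.94 in Slpi cells and fell by 0.43 (adjusted *p* = 0.000399 in limma). *Itgb4*, its partner in hemidesmosomes, was lower as well, at 1.65, 1.55 and 1.63 against 1.30, 1.09 and 1.08 FPKM (log2 difference -0.28, adjusted *p* = 0.0115 in limma).

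The 3 RGD-binding α subunits did not move together. *Itga5* was 37.9, 35.1 and 35.8 FPKM in mock and 29.3, 27.1 and 28.2 in Slpi cells and fell by 0.35 ± 0.04 (SE; adjusted *p* = 0.000195 in limma). *Itgav* was 35.6, 35.3 and 37.1 in mock and 33.4, 32.1 and 35.7 in Slpi cells, with overlap, and its log2 difference of -0.09 did not pass (adjusted *p* = 0.112 in limma), except without Slpi replicate 3 (-0.13, adjusted *p* = 0.0295) and in 2 other alternatives. *Itga8* (chr2:12106632-12301922), a receptor subunit for nephronectin, was 5.04, 4.94 and 4.96 in mock and 5.71, 7.01 and 6.12 in Slpi cells, all above mock, and rose by 0.28 ± 0.07 (adjusted *p* = 0.00732 in limma). *Itga9* was 1.56, 1.62 and 1.46 in mock and 2.37, 2.29 and 2.22 in Slpi cells and rose by 0.37 ± 0.06 (adjusted *p* = 0.00126 in limma).

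The β subunits differed from one another. *Itgb1* was 197, 196 and 196 FPKM in mock and 201, 202 and 202 in Slpi cells: the groups did not overlap, the ratio of the means was 1.03, and the log2 difference of 0.04 ± 0.03 (SE) did not pass (adjusted *p* = 0.227 in limma) and was -0.04 after quantile normalization. *Itgb3* was 11.2, 10.96 and 10.6 in mock and 11.3, 10.4 and 10.6 in Slpi cells, overlapping values (adjusted *p* = 0.751 in limma). *Itgb5* was 91.1, 90.3 and 87.3 in mock and 81.4, 77.1 and 74.8 in Slpi cells and fell by 0.20 ± 0.04 (adjusted *p* = 0.00211 in limma). *Itgb7* was low in this line, at 1.46, 1.97 and 1.46 FPKM in mock and 0.797, 0.712 and 0.798 in Slpi cells. It had a log2 difference of -0.57 ± 0.09 (adjusted *p* = 0.00101 in limma), but it entered the fit through mock libraries alone, so this *p* is no support.

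Of 8 tested cadherins 5 fell and 1 rose, against 28.9% and 31.9% of all genes. The 5 include *Cdh17*, which was tested through mock libraries alone. *Cdh11* was the most abundant member per length in this line, at 326, 329 and 337 FPKM in mock and 247, 259 and 262 in Slpi cells. All Slpi libraries were below all mock libraries, and *Cdh11* fell by 0.37 ± 0.03 (SE; adjusted *p* = 4.50e-05 in limma). *Cdh2* was 15.7, 16.4 and 16.2 in mock and 14.4, 14.5 and 14.7 in Slpi cells, a smaller fall of 0.14 ± 0.04 (adjusted *p* = 0.0104 in limma). *Cdh13*, a cadherin held by a lipid anchor, went the other way, from 2.02, 2.14 and 1.78 to 3.25, 3.30 and 3.61 FPKM, and rose by 0.56 ± 0.07 (adjusted *p* = 0.000221 in limma).

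The remaining cadherins were low. *Cdh26* was 5.73, 5.92 and 5.79 FPKM in mock and 4.04, 3.65 and 4.31 in Slpi cells and fell by 0.45 (adjusted *p* = 0.000315 in limma). *Cdh17* was 1.04, 0.967 and 1.03 in mock and 0.241, 0.539 and 0.423 in Slpi cells without overlap. It had a log2 difference of -0.53 (adjusted *p* = 0.00194 in limma), but it entered the fit through 2 mock libraries alone, so this *p* is no support, and with a mean FPKM of at least 1 as the filter it was not tested. *Cdh22* was 3.67, 3.44 and 3.17 in mock and 2.69, 2.37 and 3.03 in Slpi cells and fell by 0.26 (adjusted *p* = 0.0210 in limma), a call that was lost without mock replicate 1 (0.0738), mock replicate 2 (0.0544) or Slpi replicate 2 (0.0696). *Cdh3* and *Cdh24* had overlapping groups.

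Of the immunoglobulin-type molecules, *Vcam1* (chr3:116109949-116129688) was the most abundant, at 103, 109 and 104 FPKM in mock and 69.9, 70.0 and 72.4 in Slpi cells. Its means were 105.5 ± 3.16 and 70.8 ± 1.42 (SD, n = 3 libraries each), and it fell by 0.57 ± 0.03 (SE), with the smallest adjusted *p* among the members, 6.35e-06 in limma. *Ncam1* (chr9:49502136-49798925) was 17.4, 18.0 and 17.5 in mock and 12.9, 12.3 and 12.4 in Slpi cells and fell by 0.46 ± 0.04 (adjusted *p* = 2.91e-05 in limma). *Icam5* was the one ICAM tested, at 1.10, 1.07 and 1.14 FPKM in mock and 1.03, 0.863 and 0.851 in Slpi cells (adjusted *p* = 0.154 in limma), and 26.8% of its exon bases face the antisense gene *Gm26592*. *Icam1* was at 0.060 to 0.236 FPKM in all 6 libraries, *Alcam* at 0.165 to 0.598 and *Mcam* at 0.425 to 0.905, and these did not pass the filter. *Alcam* was 0.598, 0.581 and 0.555 in mock and 0.165, 0.310 and 0.290 in Slpi cells, and *Mcam* 0.905, 0.756 and 0.841 against 0.630, 0.595 and 0.425, both without overlap. With no filter on low values 18 members were lower, *Alcam*, *Mcam* and *Itga2* in addition.

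Among the ligands in Slpi cells, 15 of 21 tested fell and 3 rose, against 28.9% and 31.9% of all genes. The 3 that rose had the smallest *p* values: *Ibsp*, which encodes bone sialoprotein, an RGD protein of bone matrix, was 39.9, 37.9 and 42.5 FPKM in mock and 372, 409 and 364 in Slpi cells and rose by 3.22 on the log2 scale (adjusted *p* = 3.21e-08 in limma). *Tnc*, which encodes tenascin-C, a ligand of α9β1, rose by 0.96 (adjusted *p* = 3.66e-07 in limma) and *Npnt*, which encodes nephronectin, a ligand of α8β1, by 0.81 (1.43e-06). *Fn1* was 1773, 1744 and 1774 in mock and 1523, 1390.2 and 1440.0 in Slpi cells and fell by 0.28 (adjusted *p* = 0.00045 in limma). The median of the 21 was -0.28.

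Of 28 focal adhesion genes 17 fell and 5 rose, and of 9 catenin genes 6 fell and 2 rose, against 28.9% lower and 31.9% higher of all genes. *Tgfb1i1* fell by 0.79 (adjusted *p* = 1.73e-06 in limma) and *Pxn*, which encodes paxillin, by 0.55 (2.05e-05), while the small GTPase gene *Rap1b*, known for integrin activation, rose by 0.73 (8.52e-07). The catenin genes that fell included *Ctnnd1* (p120-catenin, a fall of 0.33, adjusted *p* = 6.88e-05 in limma) and *Pkp2* (0.67, 0.000239). *Pkp2* was 1.46, 1.92 and 1.65 FPKM in mock and 0.659, 0.684 and 0.704 in Slpi cells. It entered the fit through mock libraries alone, so its *p* is no support. The catenin genes that rose were *Pkp4* and *Ctnnb1*. *Ctnnb1*, which encodes β-catenin, was 247, 260.2 and 254 FPKM in mock and 309.7, 302 and 299 in Slpi cells and rose by 0.26 (adjusted *p* = 0.000223 in limma).

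Of 21 other adhesion receptors 9 fell and 7 rose, against 28.9% and 31.9% of all genes. *Boc* fell by 0.56 (adjusted *p* = 7.37e-05 in limma), *Dag1*, which encodes dystroglycan, fell by 0.25 (0.000272), and *Sdc3* rose by 0.30 (0.000214).

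The 2 experiments share no libraries and differ in cells and, per the labels, in library kit, so their values are given side by side without a test of the difference. Of the members 21 were tested in both, 14 in sorted osteoblasts alone and 4 in MC3T3-E1 cells alone. *Itga5* rose with PTH (log2 difference 0.56) and fell in Slpi cells (-0.35), and *Cdh2* did likewise (0.59 and -0.14). *Itgb7* was lower in both (-2.60 and -0.57), from a mean of 14.6 FPKM in vehicle and 1.63 in mock libraries. Its call in Slpi cells is no support, since it entered that fit through mock libraries alone. *Cdh11*, *Itga11* and *Ncam1* were lower in Slpi cells (-0.37, -0.55 and -0.46), while their PTH libraries lay above the vehicle libraries without passing the test (0.34, 0.38 and 0.51). *Vcam1* was lower in Slpi cells (-0.57) and had a log2 difference of 0.09 with PTH.

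**Figure D4:**
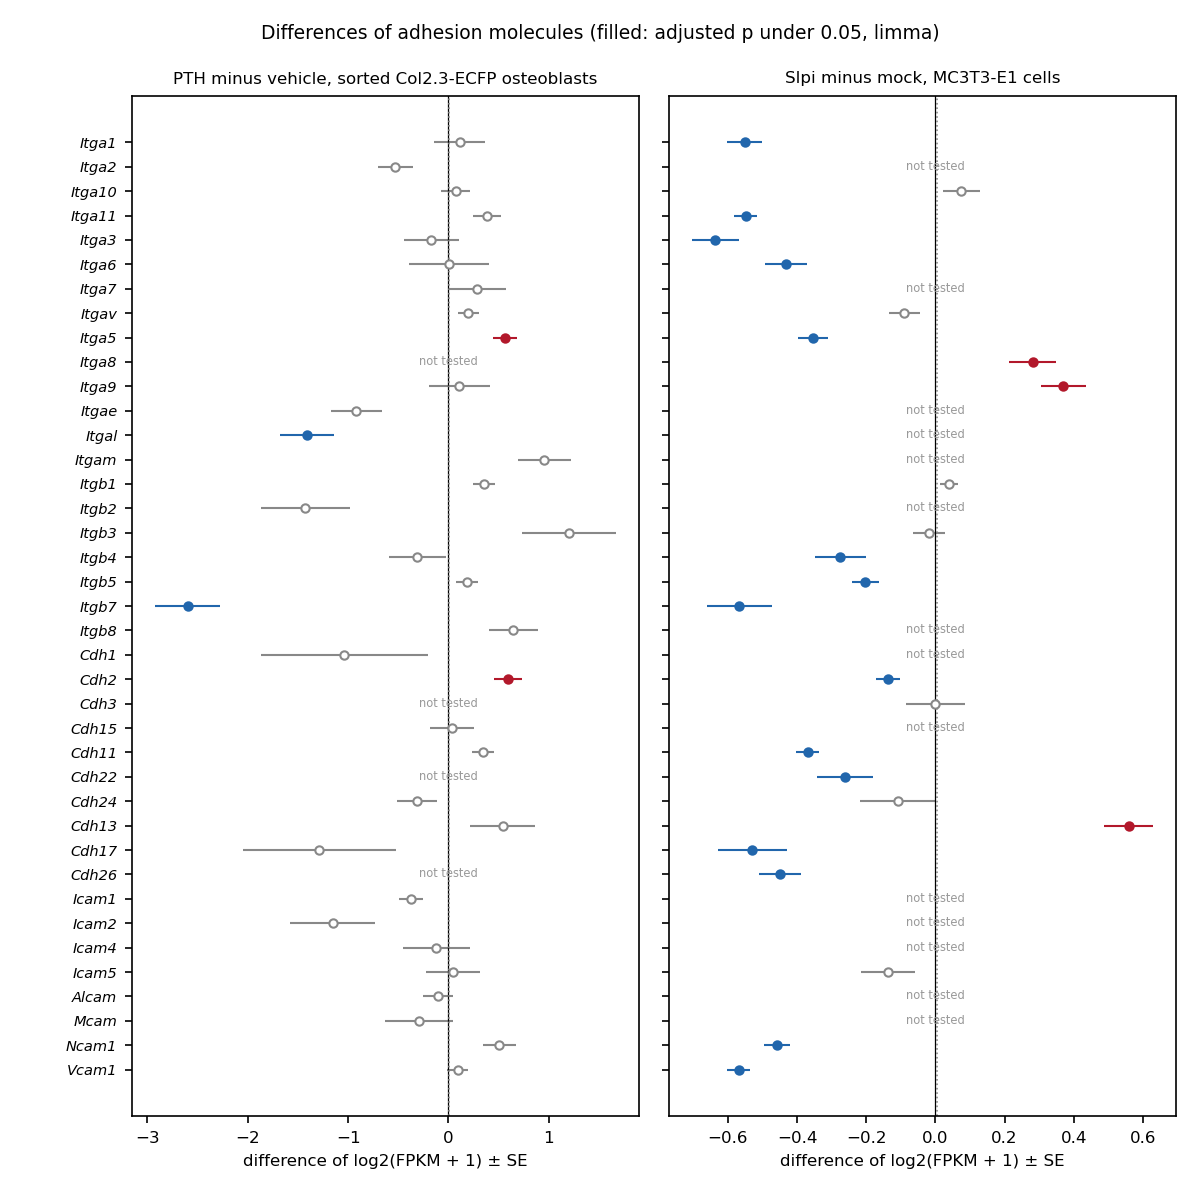
Differences of log2(FPKM + 1) with their standard errors for the 39 adhesion molecules, PTH minus vehicle in sorted osteoblasts (left) and Slpi minus mock in MC3T3-E1 cells (right, on a narrower scale). Filled points passed an adjusted *p* of 0.05 in limma, 4 on the left and 18 on the right, and the dotted line is the median of all genes tested.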

How the data were processed

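RNA-Seq was performed on 12 libraries, 3 per group. The authors deposited FPKM per gene and library, calculated with Cuffnorm (Cufflinks 2.2.1) from 75-base single-end reads. These had been mapped to mm10 by TopHat2 (2.0.13) using Bowtie2 (2.2.3) together with SAMtools (0.1.19). The gene annotation and the scaling option are not given in the sources used here, and the labels name a stranded kit for MC3T3-E1 cells where the methods name SMART-Seq v4 for both. Absolute depth is unknown from FPKM, and no confidence intervals were computed from it. Depth relative to the first control library was estimated from ratios of low FPKM values. It was 0.787 to 1.402 in sorted osteoblasts and 0.869 to 1.0 in MC3T3-E1 cells.

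Each experiment was fitted apart, 3 libraries against 3, with limma 3.58.1 (R 4.3.3; lmFit, eBayes with trend) on log2(FPKM + 1), which understates changes of low genes. Genes that reached 1 FPKM in 1 or more of the 6 libraries entered the fit, and *p* values were Benjamini-Hochberg adjusted over all of them. The fit was tested on simulated data with planted changes larger than those of *Itga5* and *Cdh2* with PTH and of every member called in MC3T3-E1 cells. Changes as small as these were not simulated. Python 3.11.15, numpy 2.4.6, scipy 1.17.1, pandas 2.3.3 and matplotlib 3.10.9 were used. Positions are those of GENCODE M21.

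The members and lists were chosen with earlier results of these data known. Named members are those called, the highest of each role, and a fixed list, with a few others named after their values were seen; of the other lists the 3 genes with the smallest *p* per experiment, and all called genes of short lists, are named. The results of 1 other list are not reported here. The alternatives were a replicate block, a pseudocount of 0.1, no filter, a mean FPKM of at least 1, quantile normalization, no trend and leaving out each library.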

Additional observations from a re-analysis of the deposited data

How the results depend on the processing

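In sorted osteoblasts, the count of members higher was 4 with a replicate block and 1 without a filter or without a trend, against 2 as reported, and 0 to 3 when 1 library was left out. The count lower was 4 with a replicate block and 0 to 3 when 1 library was left out, against 2. At least 2-fold higher were 1 after quantile normalization and 0 to 2 when 1 library was left out, against 0, and at least 2-fold lower were 4 with the block and 0 to 2 when 1 library was left out, against 2. In MC3T3-E1 cells a pseudocount of 0.1 made 1 member, *Cdh17*, at least 2-fold lower, against 0. The cause of these changes was not tested.

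Whether the replicate numbers pair the libraries was not settled. The correlations of same-numbered deviations were 0.029, 0.073 and 0.102 in sorted osteoblasts and 0.039, -0.052 and -0.0 in MC3T3-E1 cells. Those of differently numbered deviations were -0.116 to 0.069 and -0.099 to 0.105. Over all genes tested in sorted osteoblasts, 1028 were higher and 1234 lower with the block, against 830 and 1151. The block added calls of *Cdh11*, *Itgam*, *Icam2* and *Itgb2* in sorted osteoblasts and of *Itgav* in MC3T3-E1 cells.

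Of 226 alternatives for 19 named members in sorted osteoblasts, 197 kept direction and side of the threshold, 16 lost a call, 2 gained one and 11 changed sign. Of 263 for 22 members in MC3T3-E1 cells these numbers were 254, 3, 4 and 2. Signs changed only for members without a call: *Itga10* (-0.002 after quantile normalization, -0.03 to 0.19 when 1 library was left out), *Itga6* (-0.07 with the pseudocount of 0.1, -0.32 to 0.44), *Cdh15* (-0.007 after quantile normalization, -0.22 to 0.19) and *Alcam* (0.01 after quantile normalization) in sorted osteoblasts, and *Itgb1* (-0.04 after quantile normalization) and *Itgb3* (0.003 at most, -0.05 at least, when 1 library was left out) in MC3T3-E1 cells. Absolute depth is unknown, so the counting error of members near 1 FPKM cannot be given.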
